A study of Mus musculus with 16 samples.

Results

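RNA recovered with control IgG from C2C12 cells in differentiation medium (DM) was compared with RNA recovered the same way from C2C12 cells in growth medium (GM). C2C12 is a mouse myoblast line that leaves the cell cycle and fuses into multinucleated myotubes when serum is withdrawn. DM was DMEM with 2% horse serum, and GM was DMEM with 10% fetal bovine serum. Cells of both groups were lysed with NP-40, the cleared cytoplasmic extract was incubated with protein A beads carrying IgG, and RNA left on the beads after washing was extracted with TRIzol. Labelling started from an oligo-dT primer, so polyadenylated RNA was measured. Each group had 4 arrays, which makes 8 of the 16 arrays in the series. The other 8 arrays hold RNA precipitated with anti-MYF5 from the same kinds of extract (4 DM and 4 GM) and were used only to set the change between media beside a second precipitate. The labels do not give the hours spent in DM. They do not say whether the 4 replicates were separate cultures, so p-values measure the spread between these samples, which may be technical.

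Control IgG has no intended RNA target. RNA on such beads is background carried over from the extract, and input RNA is not used here. A change between media below is therefore a change in the RNA on the beads, relative to the other RNAs on the same array. A higher level of an mRNA in each cell and a larger share of cells that express it cannot be told apart.

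The members are the 12965 of 25697 probes that were detected on at least 4 of the 8 IgG arrays, where detected means a deposited detection p-value under 0.05. They cover 8910 named genes, and a gene with several probes is represented by its probe of highest mean signal. Just inside this limit were 945 probes detected on exactly 4 arrays, with a median level of 4.97 on the log2 scale, and just outside were 482 probes detected on 3 arrays, with a median level of 4.77. Levels below are background-corrected, quantile-normalized log2 signals. A gene is called when its adjusted p in limma's moderated test, with Benjamini-Hochberg adjustment over the 12965 probes, is under 0.05. "Higher" and "lower" without further words mean called higher or lower with DM.

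In myoblasts, the basic helix-loop-helix factors MyoD and MYF5 hold cells in the muscle lineage while cyclins, Id proteins and growth factors keep them dividing. When mitogens fall, myogenin and MEF2 proteins switch on the contractile genes, the inhibitor p21 stops the cell cycle, and membrane proteins such as myomaker fuse the cells. Myotubes then assemble sarcomeres, in which myosin thick filaments slide along actin thin filaments anchored at Z-discs.

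Mean signal was 422 to 493 on the DM arrays and 324 to 513 on the GM arrays, and 49.4% to 50.7% of probes were detected with DM and 46.5% to 49.4% with GM. Pearson's r over probes was 0.975 to 0.995 between arrays of one medium and 0.853 to 0.882 between arrays of different media. GM array 4 stood apart from the other 3 GM arrays. It had the lowest mean signal and the lowest detection of the 8 arrays. Among 7403 genes detected on all 8 arrays it was the highest GM array for 37.7%, but for 56.8% of the 669 genes that were higher by at least 2-fold. It was the lowest GM array for 36.6% of these 7403 genes and for 53.3% of the 878 genes that were lower by at least 2-fold. On GM array 4, then, more of the changed genes lay nearest to their DM level than the genes as a whole did, and the reason was not tested.

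Of the 8910 genes, 2702 were higher with DM, which is 30.3%, and 3117 were lower, which is 35%, so that 65.3% were called. A list below with about these shares higher and lower does not stand out from the genes as a whole. The groups did not overlap for 56.9% of the genes and 55.8% of the probes. The median log2 fold change over all genes was -0.07. At least 2-fold, 1059 genes were higher and 998 were lower, and at least 8-fold the counts were 182 and 58. Among genes detected on all 8 arrays, 669 were higher and 878 lower by at least 2-fold, and 63 and 46 by at least 8-fold, so the balance at 2-fold turned there. A gene that passed the detection limit through one medium alone had to differ. Counts and medians of lists below are therefore descriptions of the members that passed, and where a printed median differs by over 1.5 times or in sign over the members detected on all 8 arrays, that value is given too. Where a gene's number of detecting arrays is given, the other arrays of that group are at background and the size of the change is uncertain. In probes, 3836 were higher (29.6%) and 4562 lower (35.2%), or 64.8% together. That balance depended on how arrays were scaled, with 4370 higher and 2785 lower after median scaling and 4706 higher and 2073 lower with no scaling. The median of all genes was 0.11 after median scaling and 0.21 with no scaling. Without GM array 4, 3949 probes were higher and 4656 lower.

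**Figure D1:**
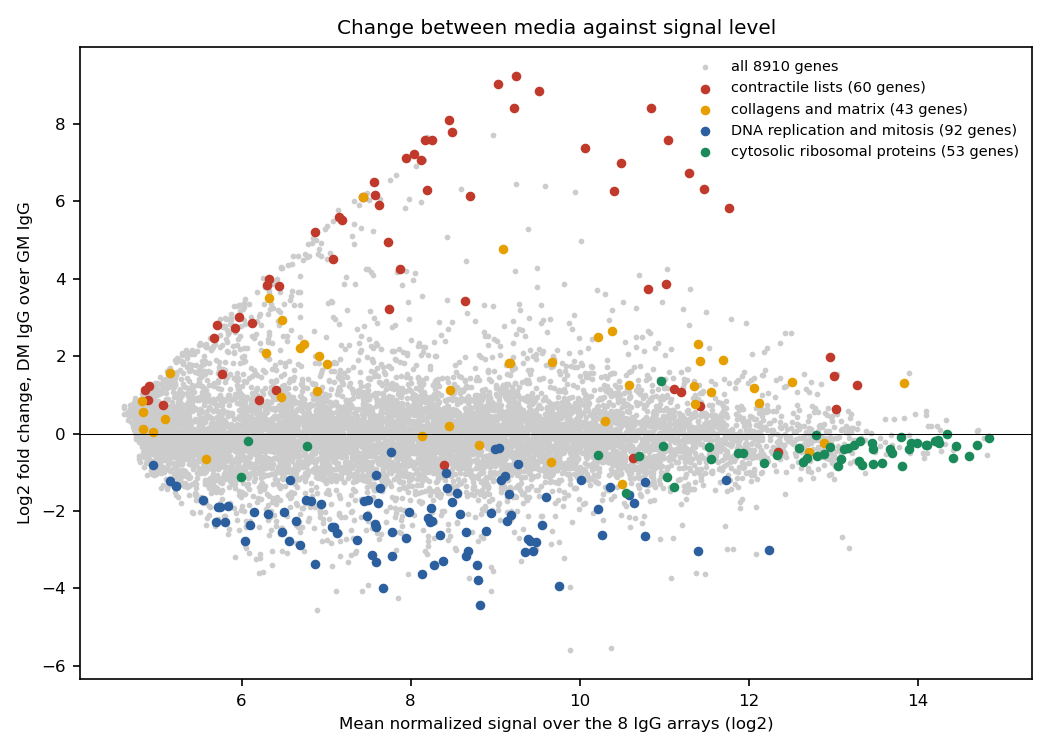
Log2 fold change of DM IgG over GM IgG (vertical) against the mean normalized log2 signal over the 8 IgG arrays (horizontal) for 8910 genes (grey). Contractile genes (red) reach 9.25, matrix genes (orange) lie mostly above 0, DNA replication and mitosis genes (blue) all lie below 0, and cytosolic ribosomal protein genes (green) lie mostly just below 0 at high signal. The straight upper left edge is formed by probes at the background level in one medium.

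A few genes for myogenic transcription factors had very large changes. Myog encodes myogenin, the factor needed for terminal muscle differentiation. Its level was 11.28, 11.32, 11.01 and 10.85 on the DM arrays, against 4.32, 5.16, 4.55 and 6.46 on the GM arrays. All DM arrays lay far above all GM arrays, and GM array 4 was the highest of its group. The log2 fold change was 5.99 ± 0.35 (SE, 4 arrays a group; limma adjusted p = 2.4e-12), or 63.6-fold. Since Myog was detected on only 2 of the 4 GM arrays, that size is uncertain. The second Myog probe was detected on all 4 DM arrays and on no GM array. Mef2c, which encodes a MADS-box partner of myogenin, had levels of 13.18, 12.92, 13.21 and 12.93 with DM and 6.59, 6.79, 7.06 and 6.84 with GM. It rose by 6.24 ± 0.12 (adjusted p = 1.5e-20), and all 3 of its probes were called higher. Here GM array 4 lay within its group. Myf6, the late factor MRF4, was low in both groups, was detected on 2 GM arrays and rose by 1.61 ± 0.15 (adjusted p = 8.0e-09).

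Myod1, the gene for MyoD, behaved differently from Myog and Mef2c. Its levels were 8.84, 9.02, 8.75 and 9.0 with DM and 8.61, 8.59, 8.61 and 9.07 with GM. The groups overlapped through GM array 4 alone, and the difference of 0.18 ± 0.13 did not pass the test (limma adjusted p = 0.22). Without that array it was 0.30 and passed (limma adjusted p = 0.034). The Myf5 probe was detected on 0 of the 8 IgG arrays and was not tested. Over the 25 tested myogenic factors and cofactors, 11 were higher, 4 lower and 10 not called, and the median log2 fold change was 0.24 against -0.07 over all genes. The shares over all genes were 30.3% higher and 35% lower. Csrp3, the gene for a LIM protein of the Z-disc, was at least 108-fold higher. Srf, the gene for serum response factor, fell by 0.36, Mrtfb, the gene for one of its coactivators, by 0.76, and the homeobox cofactor gene Eya1 was at least 1.60-fold lower.

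Because myogenic and MEF2 factors are known to act through short words near start sites, the 250 bases before the start sites of 3 genes with large gains are shown, from RefSeq on GRCm38.p6. Capitals mark the E-box CANNTG, the word that myogenic factors bind as dimers, and CTANNNNTA, a looser pattern than the MEF2 word. Any base was allowed at N, and both strands were searched. Myog lies on the plus strand, and its stretch is chr1:134289754-134290003.
Myog: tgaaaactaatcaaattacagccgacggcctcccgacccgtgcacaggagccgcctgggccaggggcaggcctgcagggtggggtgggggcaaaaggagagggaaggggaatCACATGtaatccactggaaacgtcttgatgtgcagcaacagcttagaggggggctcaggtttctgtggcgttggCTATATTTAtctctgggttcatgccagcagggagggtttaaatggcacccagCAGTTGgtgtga
It holds 2 CANNTG words and 1 CTANNNNTA word, which starts 64 bases before the start site. Chrng, the gene for the fetal gamma subunit of the acetylcholine receptor, lies on the plus strand at chr1:87205561-87205810.
Chrng: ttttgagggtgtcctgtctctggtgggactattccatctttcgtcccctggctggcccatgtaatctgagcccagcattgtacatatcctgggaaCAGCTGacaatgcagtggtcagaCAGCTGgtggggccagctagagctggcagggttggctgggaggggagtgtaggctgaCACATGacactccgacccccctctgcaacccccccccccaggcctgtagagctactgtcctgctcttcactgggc
It holds 3 CANNTG words, of which 2 are CAGCTG, at 155 and 132 bases before the start site. Acta1, the gene for skeletal alpha-actin, lies on the minus strand at chr8:123894776-123895025.
Acta1: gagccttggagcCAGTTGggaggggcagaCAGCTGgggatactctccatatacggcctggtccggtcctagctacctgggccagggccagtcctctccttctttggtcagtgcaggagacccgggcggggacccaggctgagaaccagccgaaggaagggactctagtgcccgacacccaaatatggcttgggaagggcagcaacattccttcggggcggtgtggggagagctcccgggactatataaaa
It holds 2 CANNTG words and no CTANNNNTA word.

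RefSeq promoter windows were found for 140 of the 182 genes that were at least 8-fold higher, 197 windows in all. Of these windows, 71.6% held CANNTG, 23.9% held CAGCTG and 25.9% held CTANNNNTA in the 250 bases before the start. Over the 9418 windows of all tested genes the shares were 57.9%, 11.9% and 13.2%, and 66.2%, 13% and 19% over all 32851 promoter windows. For the 51 windows of genes at least 8-fold lower they were 64.7%, 11.8% and 9.8%. For the 63 windows of the contractile lists the shares were 82.5%, 28.6% and 36.5%. CAGCTG is itself one form of CANNTG, so the first share includes the second, and the windows of all tested genes include those of both sets. These are counts of words in one fixed window and not binding sites, and CTANNNNTA also matches words that are not MEF2 words.

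Genes of the sarcomere were among the large gains, and the 3 contractile lists held 39 of the 182 genes that were at least 8-fold higher. Of 16 tested genes of the myosin thick filament, 14 were higher and 2 were lower, with a median log2 fold change of 5.87 against -0.07 over all genes. With the 10 genes detected on no GM array set to their lower bound, explained next, the median was 5.71. The 2 that fell, Hspb1 (by 0.47) and Smyd2 (by 0.82), encode a small heat shock protein and a methyltransferase and are not filament proteins. Myh8, the gene for the perinatal myosin heavy chain, had levels of 14.01, 13.77, 13.97 and 13.75 with DM and 4.90, 4.56, 4.54 and 4.51 with GM. It was detected on all 4 DM arrays and on no GM array, so its gain is a lower bound. The bound sets the DM mean against the lowest detected signal of each GM array, or the probe's own signal where that is higher. Myh8 was at least 500.5-fold higher. The adult fast chains Myh1 and Myh4 were at least 399-fold and at least 194-fold higher. No p-value is given for genes detected on no array of one medium, because they passed the detection limit through the other medium alone. These heavy chain genes are close copies of one another, and how far their probes distinguish them was not tested. Mylpf, the fast regulatory light chain, rose by 8.41 ± 0.30, with levels of 14.97 to 15.13 with DM and 6.13 to 8.05 with GM.

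Of 16 thin filament genes, 15 were higher and 1 lower, with a median of 6.31, or 4.25 over the 9 detected on all 8 arrays. The skeletal actin gene Acta1 had levels of 14.80, 14.71, 14.88 and 14.92 with DM and 7.22, 6.93, 6.85 and 8.0 with GM. Its log2 fold change was 7.58 ± 0.21 (adjusted p = 5.5e-18), and its deposited signals of 28025 to 30126 with DM stood against 159 to 204 with GM. Actc1, the cardiac actin that embryonic skeletal muscle also uses, rose by 8.41 ± 0.25, with 1 of 4 GM arrays above background. Among the troponins, Tnnc2, the fast calcium-binding subunit, rose by 8.86 ± 0.31 (detected on 1 of 4 GM arrays), and Tnnt3 and Tnni1 were at least 179-fold and at least 141-fold higher. The slow troponin T gene Tnnt1 had levels of 13.88, 14.05, 13.96 and 14.01 with DM and 6.01, 6.85, 6.22 and 8.89 with GM. Its DM arrays agreed closely, while GM array 4 lay more than 2 units above the next GM array. Its fold was 127 on all arrays and 196 without GM array 4, and among the 177 named genes no other fold moved over 1.5 times when any one IgG array was left out. Both slow and fast forms of troponin rose.

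All 28 tested genes of the Z-disc, titin and intermediate filament list were higher, with a median of 3.32. Myoz2, which anchors calcineurin at the Z-disc, was at least 132-fold higher and Actn2, the muscle alpha-actinin, at least 96.9-fold higher. Des, the gene for desmin, was already high with GM. Its levels were 13.97, 13.91, 14.05 and 13.84 with DM and 11.74, 11.76, 11.82 and 12.59 with GM, a change of 1.97 ± 0.20 (adjusted p = 2.2e-08). Of all 3 contractile lists, 27 genes were detected on all 8 arrays, and GM array 4 was the highest GM array for 20 of them (74.1%, against 37.7% of all genes detected on all 8 arrays). It was still below every DM array for Myog, Acta1, Tnnt1 and Des.

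**Figure D2:**
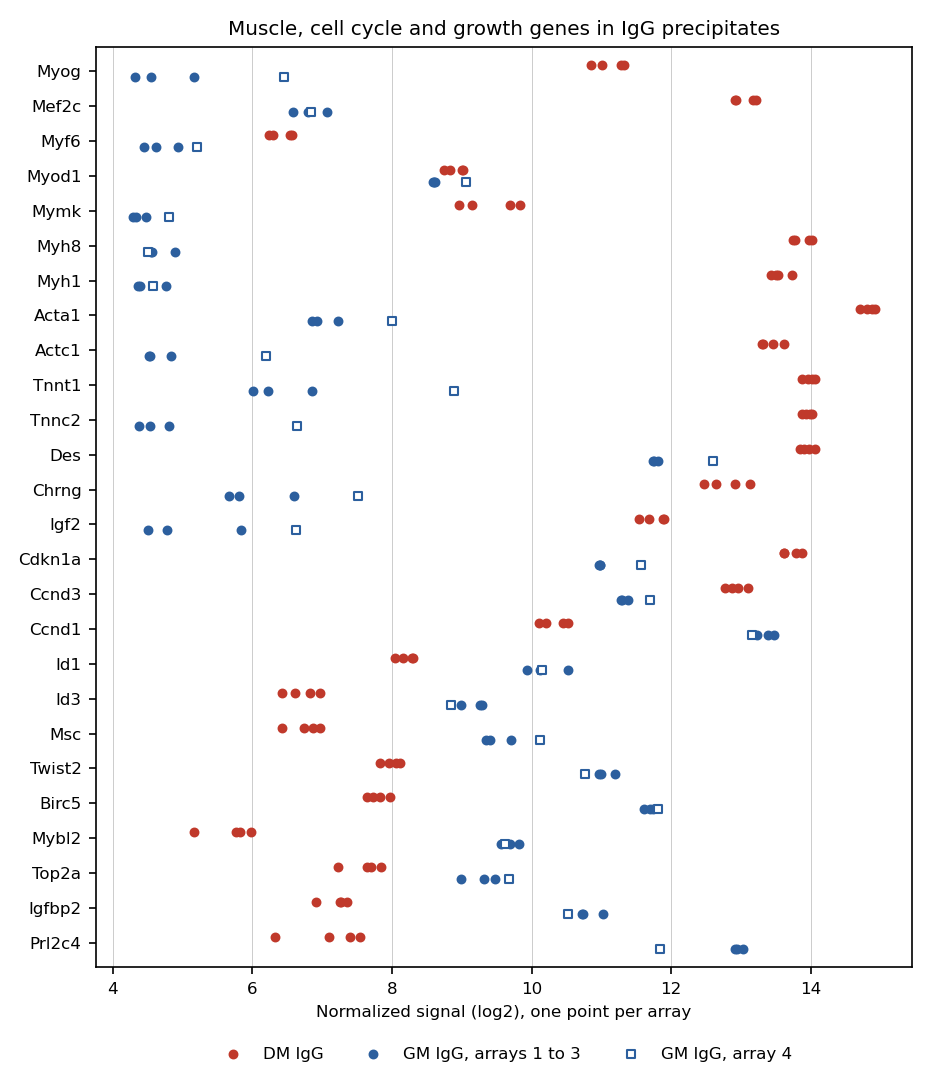
Normalized log2 signal (horizontal) of 26 genes on each IgG array, with DM as red points, GM arrays 1 to 3 as blue points and GM array 4 as open squares. Myog, Tnnt1 and Igf2 show the square above the other GM arrays, Myod1 overlaps between media, and the genes from Ccnd1 downwards are lower with DM.

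Genes that let an electrical signal release calcium moved with the filaments. Of 25 genes of excitation-contraction coupling, 21 were higher, 1 was lower and 3 were not called, with a median of 2.51, or 2.11 with genes undetected in one medium at their bound. Over the 10 genes detected on all 8 arrays 7 were higher and 1 lower, with a median of 1.21. Atp2a1, the calcium pump of fast sarcoplasmic reticulum, rose by 6.46 ± 0.33, with levels of 12.30 to 12.59 with DM and 5.15 to 7.11 with GM. Ryr1, the calcium release channel, was detected on 2 GM arrays and rose by 5.83 ± 0.23, and Casq2, a calcium store protein, was at least 43.4-fold higher. Bves, a membrane protein of the Popeye family, fell by 0.85 ± 0.13.

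Of 17 genes of the acetylcholine receptor and the synapse, 15 were higher, 1 lower and 1 not called, with a median of 0.70. Chrng had levels of 12.91, 12.64, 12.47 and 13.13 with DM and 5.81, 6.59, 5.66 and 7.52 with GM, and rose by 6.40 ± 0.33 (adjusted p = 3.3e-13). The delta subunit Chrnd, detected on 2 GM arrays, rose by 1.72, the alpha subunit Chrna1 by 0.66, and the beta subunit Chrnb1 by 0.52. The adult epsilon subunit Chrne was called higher, with 1 of 4 GM arrays above background. Lrp4, the agrin receptor, rose by 2.78. Utrn, the gene for utrophin, fell by 0.41 ± 0.14 (limma adjusted p = 0.018), and this call was lost without GM array 4 (log2 fold change -0.29, limma adjusted p = 0.077), without GM array 1 (-0.34, limma adjusted p = 0.060), and without DM array 3 (-0.36, limma adjusted p = 0.055) or DM array 4 (-0.35, limma adjusted p = 0.061). In the dystrophin complex list 7 of 17 genes were higher, 5 lower and 5 not called, against 30.3% higher and 35% lower over all genes. The median of the list was 0.035, and -0.22 over the 14 genes detected on all 8 arrays. Caveolin-3, encoded by Cav3, was at least 13.1-fold higher and Sgca, alpha-sarcoglycan, rose by 3.19, while Dtnb and Sntb2, a dystrobrevin and a syntrophin of wide tissue range, fell by 1.14 and 1.05.

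Fusion genes moved in both directions, as did genes as a whole. Of 27 tested genes of myoblast fusion and adhesion, 10 were higher, 10 were lower and 7 were not called, with a median of 0.12. Over all genes 30.3% were higher and 35% lower. Over the 20 of these detected on all 8 arrays the median was -0.35, which is of the opposite sign. Mymk encodes myomaker, the membrane protein that fuses myoblasts. Its levels were 9.15, 9.83, 8.97 and 9.69 with DM and 4.29, 4.48, 4.33 and 4.81 with GM, and it was at least 22.6-fold higher. Itgb1bp2, the gene for melusin, an integrin-binding protein of striated muscle, was at least 43.2-fold higher. Lower were the netrin receptor Neo1 (by 1.72), the junction protein Jam2 (by 1.63) and the tetraspanin Cd9 (by 1.20).

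Muscle energy genes were mostly higher. Of 26, 22 were higher, 1 was lower and 3 were not called, with a median of 2.41, or 2.17 with genes undetected in one medium at their bound and 1.43 over the 16 detected on all 8 arrays. Mb, the gene for myoglobin, had levels of 12.95, 12.89, 12.72 and 12.74 with DM and 5.46, 4.93, 4.84 and 5.22 with GM. The gain was 7.71 ± 0.13 (adjusted p = 3.3e-21), and GM array 4 lay within its group. Pgam2, the muscle phosphoglycerate mutase, was at least 76.8-fold higher and Ckm, the muscle creatine kinase, at least 9.65-fold higher. Cpt1b, the muscle carnitine palmitoyltransferase, fell by 0.74 ± 0.12.

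Muscle forms of respiratory subunits were among the large gains. Cox6a2 and Cox8b, which encode the heart and muscle forms of 2 cytochrome c oxidase subunits, were at least 111-fold and at least 53.9-fold higher, and Cox7a1, another muscle form, rose by 1.91 ± 0.15. Over all 71 tested oxidative phosphorylation genes, 15 were higher, 26 lower and 30 not called, with a median of -0.14. The shares over all genes were 30.3% higher and 35% lower. The largest losses were Ndufa4 at -1.76, Atp5o at -0.97 and Cycs, cytochrome c, at -0.88. The count turned with scaling, to 12 higher and 8 lower after median scaling and 13 higher and 4 lower with no scaling. Of 34 genes of the tricarboxylic acid cycle and fat oxidation, 15 were higher, 3 lower and 16 not called, with a median of 0.27. Pdhb, a pyruvate dehydrogenase subunit, rose by 1.15.

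The cell cycle lists went the other way. Every one of the 49 tested DNA replication genes was lower, with a median of -1.90, and every one of the 43 tested mitosis genes was lower, with a median of -2.55, against 35% of all genes. With median scaling 46 of the 49 and all 43 of the 43 were called lower, and with no scaling 45 and 43. Birc5, the gene for survivin of the chromosomal passenger complex, had levels of 7.73, 7.97, 7.64 and 7.83 with DM and 11.70, 11.74, 11.62 and 11.81 with GM. Every DM array lay below every GM array, and the loss was 3.92 ± 0.11 on the log2 scale (adjusted p = 1.2e-17), or 15.2-fold. Mybl2, the gene for B-Myb, which drives mitotic genes, fell by 3.99 ± 0.17, with levels of 5.17, 5.83, 5.76 and 5.97 with DM and 9.56, 9.69, 9.82 and 9.62 with GM. Its GM array 4 lay within its group. Top2a, the gene for topoisomerase II alpha, fell by 1.77 ± 0.15. Of the replication genes, Blm, the Bloom helicase, fell by 4.42 ± 0.14, Tk1, the S phase thymidine kinase, by 3.77 ± 0.13, and Chaf1b, a chromatin assembly subunit, by 3.40 ± 0.16. Sgo1 and Cdca3, a guardian of centromere cohesion and a trigger of mitotic entry, fell by 4.25 and 3.96.

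Cenpn, which encodes a centromere protein and fell by 3.64 ± 0.12, is shown as an example of a mitosis promoter because both words searched for lie close to its start site. Its stretch is chr8:116921490-116921739 on the plus strand of GRCm38.p6 (RefSeq). Capitals mark CCAAT, the NF-Y word, and TTTGAA, a form of the cell cycle homology word, each on either strand.
Cenpn: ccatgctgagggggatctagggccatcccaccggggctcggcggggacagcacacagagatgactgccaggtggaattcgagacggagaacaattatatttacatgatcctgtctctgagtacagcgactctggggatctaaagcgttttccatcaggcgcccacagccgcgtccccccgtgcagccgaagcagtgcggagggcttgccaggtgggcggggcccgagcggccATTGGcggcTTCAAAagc
The CCAAT word on the minus strand starts 18 bases and the TTTGAA word on the minus strand 9 bases before the start site. Of 39 windows of mitosis genes, 69.2% held CCAAT and 33.3% held TTTGAA. For the 9418 windows of all tested genes the shares were 35.4% and 10.4%. For 49 windows of DNA replication genes they were 57.1% and 12.2%. These differences in share were not tested.

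Around G1, 1 of 15 cyclin, kinase and E2F genes was higher, 11 were lower and 3 were not called, with a median of -1.14. Ccnd1 encodes cyclin D1, which carries growth factor signals into the cell cycle, and is the mRNA the series title names. Its levels were 10.21, 10.45, 10.52 and 10.11 with DM and 13.39, 13.22, 13.48 and 13.16 with GM. The groups were wide apart, with a fall of 2.99 ± 0.12 (adjusted p = 8.5e-15), or 7.95-fold, and its 3 probes fell by 2.97 to 3.19. Deposited signals of its brightest probe averaged 1338 ± 52.3 with DM and 10380 ± 2803 with GM (SD, n = 4 each). The D cyclins did not move alike, since Ccnd2 fell by 1.86 and Ccnd3, the D cyclin that stays in myotubes, rose by 1.52 ± 0.12. The S phase cyclins Ccne2 and Ccne1 fell by 2.44 and 1.91, and the activator E2f1 by 2.24.

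Inhibitors of the cell cycle moved in both directions, with 11 of 23 higher, 8 lower and 4 not called, against 30.3% higher and 35% lower over all genes. Their median was 0.21, or 0.03 with genes undetected in one medium at their bound. Cdkn1a, the gene for the inhibitor p21, had levels of 13.87, 13.79, 13.62 and 13.62 with DM and 10.96, 10.98, 10.98 and 11.57 with GM. It rose by 2.60 ± 0.13 (adjusted p = 2.6e-13), and its 3 probes rose by 2.60 to 3.22. GM array 4 again lay above the other GM arrays, and below all DM arrays. Gadd45a, a growth arrest gene, rose by 4.26 and Rb1, the retinoblastoma gene, by 1.58, while its relative Rbl1 (p107) fell by 1.66. Cdkn1c, the gene for p57, did not pass the test, with a difference of 0.21 ± 0.14 (limma adjusted p = 0.20). Without GM array 4 the difference was 0.36 and passed (limma adjusted p = 0.017).

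The list of repressors of myogenic differentiation, which also holds related factors that are not inhibitors, split into falling and rising members. Of 19, 8 were higher, 8 lower and 3 not called, against 30.3% higher and 35% lower over all genes. Their median of 0.31 was 0.0042 over the 17 genes detected on all 8 arrays and -0.01 with the Actb probe gap described below as a covariate. The Id proteins bind E proteins and keep MyoD from DNA, and all 3 tested Id genes fell. Id3 had levels of 6.42, 6.82, 6.61 and 6.97 with DM and 9.27, 9.29, 8.99 and 8.85 with GM, a loss of 2.40 ± 0.15. Id1 fell by 1.99 ± 0.13 and Id2 by 1.36 ± 0.16 (limma adjusted p = 2.8e-11 and 2.4e-07). Twist2 and Msc, the gene for musculin, are helix-loop-helix repressors, and they fell by 2.99 and 2.90. In the other direction, Zeb1, a repressor at E-boxes, rose by 2.36, Hes6, a Hes family member that promotes differentiation, by 2.18 and Bhlhe40 by 2.03.

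Growth factor genes included some of the largest changes on both sides. Igf2 encodes an autocrine survival and differentiation signal of myoblasts. Its levels were 11.89, 11.90, 11.68 and 11.54 with DM and 4.51, 5.83, 4.78 and 6.63 with GM, and it rose by 6.31 ± 0.32 (adjusted p = 2.4e-13). The GM arrays spread widely, with array 4 highest and 2 of the 4 above background, and all lay below the DM arrays. Igf1, detected on 1 GM array, rose by 4.50 ± 0.17. The binding proteins diverged, since Igfbp4 rose by 5.28 ± 0.16 and Igfbp5 by 0.75 ± 0.22, with GM array 4 (12.87) among its DM levels of 12.86 to 13.07, while Igfbp2 fell by 3.55 ± 0.15. Of the 13 tested genes of the axis, 8 were higher and 5 lower, against 30.3% higher and 35% lower over all genes.

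In the TGF-beta and myostatin pathway 15 of 33 genes were higher, 7 lower and 11 not called, with a median of 0.10. Fst, the gene for follistatin, which binds myostatin and activins, was detected on 3 GM arrays and rose by 3.40, the activin subunit Inhbb by 3.45 and the ligand Tgfb2 by 2.74. Grem1, a BMP antagonist, fell by 1.39. In the Notch pathway 7 of 16 were higher and 6 lower, and its median of 0.18 became -0.33 over the genes detected on all 8 arrays. Jag2 (a ligand), Hey1 (a target) and Notch1 (a receptor) fell by 1.65, 1.67 and 1.17. The targets Hes1 and Heyl went the other way and rose by 0.62 and 0.56, with Heyl detected on 1 GM array. In the FGF and HGF list 8 of 22 were higher and 9 lower, with a median of 0.10, or 0.01 over the 19 detected on all 8 arrays. Over all genes 30.3% were higher and 35% lower. Fgf21, detected on 1 GM array, rose by 3.69, and Etv4 and Dusp4, which growth factor signalling through ERK induces, fell by 2.54 and 1.60.

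Of 28 immediate early and serum response genes 7 were higher, 13 lower and 8 not called, with a median of -0.23. The shares over all genes were 30.3% higher and 35% lower. Plaur, the urokinase receptor, fell by 3.15 and Fosl1, an AP-1 subunit, by 2.71, whereas Junb rose by 1.43. Egr1, with a difference of -0.02, was not called. The 3 tested proliferin genes, prolactin relatives, had a median of -5.54, the lowest of the 32 lists. Prl2c4 had levels of 7.39, 6.32, 7.54 and 7.09 with DM and 12.92, 13.03, 12.94 and 11.84 with GM, a fall of 5.60 ± 0.26, or 48.4-fold. Prl2c3 fell by 5.54 ± 0.26, and Prl2c1 was at least 9.53-fold lower. These genes are nearly identical, and their probes may read one another's transcripts. GM array 4 was the lowest GM array for Prl2c4.

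Matrix genes were mostly higher. Of 43 collagen and matrix genes, 33 were higher, 5 lower and 5 not called, with a median of 1.23. Mfap5, a microfibril protein, had levels of 10.42, 10.59, 10.40 and 10.58 with DM and 4.37, 4.42, 4.30 and 4.41 with GM, and was at least 48.2-fold higher. Col1a1, the main chain of collagen I, was at least 9.0-fold higher. Dcn, the gene for decorin, rose by 4.76 ± 0.43, with GM levels of 6.25, 6.52, 5.94 and 8.16 that spread more than its DM levels of 11.12 to 11.71. Col18a1, the gene for the parent chain of endostatin, fell by 1.29. Of 39 nonmuscle cytoskeleton genes 17 were higher, 14 lower and 8 not called, against 30.3% higher and 35% lower over all genes. The median of this list was 0.08 (-0.0052 over the 37 detected on all 8 arrays). Among its members the nonmuscle myosin gene Myh9 rose by 2.59, while the actin-binding genes Cfl1 and Pfn1 fell by 2.32 and 1.25.

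Of 24 tested ubiquitin ligase and autophagy genes 17 were higher, none were lower and 7 were not called, with a median of 0.68, or 0.44 over the 20 detected on all 8 arrays. Trim72, the gene for the membrane repair protein mitsugumin 53, was at least 69.9-fold higher. Trim63, the ligase MuRF1, was at least 5.18-fold higher, and Fbxo32, the ligase atrogin-1, rose by 1.355. Of 31 heat shock genes 10 were higher, 6 lower and 15 not called, against 30.3% higher and 35% lower over all genes. The myosin chaperone Unc45b and the muscle small heat shock genes Hspb7 and Hspb3 were at least 50.8-fold, 32.9-fold and 20.6-fold higher, while other small heat shock genes moved less or the other way, with Hspb8 and Cryab up by 1.89 and 1.08 and Hspb6 and Hspb1 down by 0.66 and 0.47. The mitochondrial chaperones Hspe1 and Hspd1 fell by 1.70 and 1.01.

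Ribosomal protein genes moved little but mostly one way. Of 53, 43 were lower, 1 was higher and 9 were not called, with a median of -0.39. Rplp0 fell by 1.54 and Rpl13a by 1.38, and Rpl22 rose by 1.36. The lower count was 37 after median scaling and 22 with no scaling. Of 33 ribosome biogenesis genes 20 were lower and 1 higher, with a median of -0.54, and the count of lower genes was 15 after median scaling and 13 with no scaling. Of 24 ER chaperone genes 5 were higher and 10 lower (5 and 4 after median scaling), and of 21 cholesterol synthesis genes none were higher and 9 lower (4 and 3 with no scaling). The shares over all genes were 30.3% higher and 35% lower. Of 19 interferon and antigen presentation genes 10 were higher and 2 lower, with a median of 0.45, but of the 10 detected on all 8 arrays 3 were higher and 1 lower, with a median of 0.16.

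**Figure D3:**
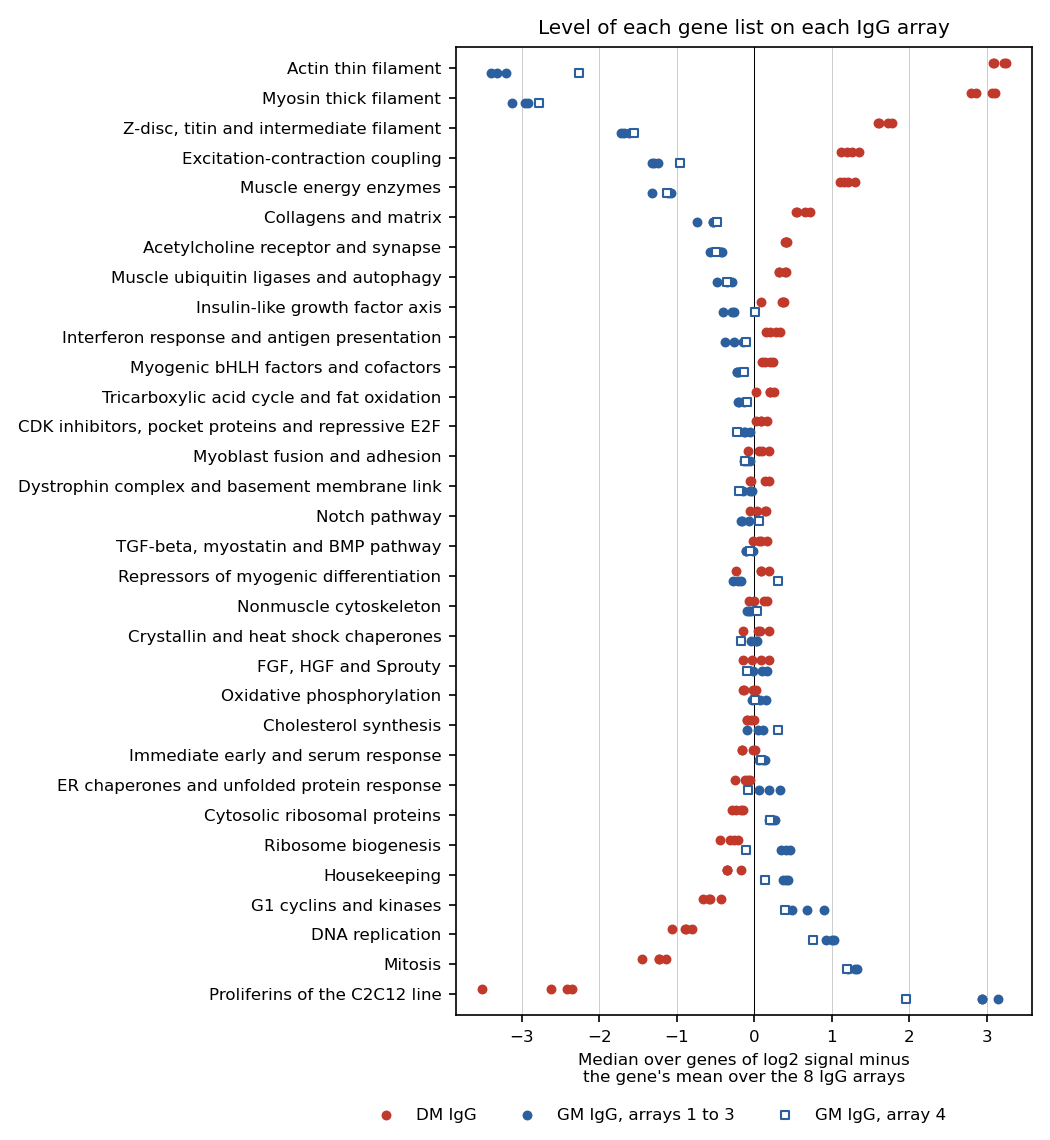
Level of 32 gene lists on each IgG array, as the median over the list's genes of the log2 signal minus the gene's mean over the 8 arrays (horizontal). DM arrays are red, GM arrays 1 to 3 blue and GM array 4 an open square. The filament, Z-disc, coupling and energy lists separate upwards with DM and the proliferin, mitosis, replication and G1 lists downwards. Levels of 21 of the 32 lists do not overlap between media, and the other 11 overlap.

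The labelled cell type was checked on its markers. The 5 tested myotube markers (Acta1, Tnnt1, Myog, Mymk and Ckm) were all higher, with a median of 5.99. Their median level as a list ranged from 2.75 to 3.20 on the DM arrays and from -3.80 to -1.88 on the GM arrays, taken around each gene's mean, with GM array 4 highest of its group. Of the myoblast markers Des and Chrna1 were higher, Vcam1 lower and Myod1 not called. Most markers of other cells were not detected often enough to test. Of the blood markers 3 are on the array and none was tested, and 1 each of the neural, epithelial and cartilage markers was tested. Of the adipocyte markers 2 of 7 on the array were tested, and Pparg fell by 2.125. Of the osteoblast markers 3 were tested and 1 was higher, and of the reserve cell markers 3 were tested, 1 higher and 1 lower. The smooth muscle markers Smtn, Des and Acta2 were higher, by 3.25, 1.97 and 1.56, and muscle cells also express them. The endothelial genes Vwf and Tek were detected on no GM array and were at least 1.10-fold and at least 1.06-fold higher. Hba-a1, an alpha-globin gene detected on 3 DM arrays, fell by 4.06 ± 0.25, with levels of 5.04, 4.76, 5.25 and 5.28 with DM and 8.92, 8.89, 8.69 and 10.06 with GM, although none of the blood markers on the array was detected often enough to test.

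Some genes often used for scaling changed too. Of 9 tested housekeeping genes 1 was higher, 5 lower and 3 not called, while 65.3% of all genes were called. Gapdh rose by 0.35 ± 0.11, but on the deposited z-scores its difference was -0.19. Ywhaz and Gusb fell by 1.04 and 1.06. Actb has 5 tested probes, and they did not agree. Its brightest probe differed by -0.22 ± 0.10 (limma adjusted p = 0.061), another fell by 0.86 ± 0.21, and the dimmest rose by 1.48 ± 0.54 (limma adjusted p = 0.020). The gap between the brightest and dimmest Actb probe was 5.16, 3.84, 4.26 and 5.61 on the DM arrays and 7.61, 6.55, 7.27 and 4.20 on the GM arrays. It was narrower with DM than on GM arrays 1 to 3, and GM array 4 lay within the DM range. On the anti-MYF5 arrays the gap was 3.04, 2.21, 1.75 and 3.41 with DM and 4.14, 4.53, 3.34 and 3.69 with GM. It therefore differed between precipitates as well as between media. With this gap as a covariate 3688 probes were higher and 4418 lower. Its part in the results was otherwise not tested.

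Some genes showed opposite calls at different probes. Of 2386 genes with several tested probes, 46 had at least 1 probe called higher and at least 1 called lower, and the named ones below were taken from the largest gaps after their values were seen. Tpm3 encodes a tropomyosin with muscle and nonmuscle forms. Its brightest probe ILMN_2444316 had levels of 10.54, 10.29, 10.38 and 10.08 with DM and 10.81, 10.83, 11.19 and 10.93 with GM, a loss of 0.62 ± 0.15. Its probe ILMN_2426967 had levels of 10.39, 9.88, 9.80 and 9.93 with DM and 4.62, 4.31, 4.38 and 4.42 with GM, and was at least 34.1-fold higher. Probe ILMN_2426965 was at least 28.4-fold higher, and probe ILMN_2426966, detected on 2 GM arrays, rose by 4.71. Tpm3 is therefore the 1 thin filament gene counted as lower above, and 3 of its 4 probes were called in the opposite direction.

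Pdlim5 encodes an enigma family protein of the Z-disc with several splice forms. One probe fell by 0.53, one was at least 3.05-fold higher, and the other two rose by 3.21 and 3.69. Pacsin1, a membrane-bending protein, fell by 0.38 at one probe and was at least 16.6-fold higher at the other. In both genes the probe that fell was detected on all 8 arrays. Which transcript each probe reads is not annotated in the files used here.

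**Figure D4:**
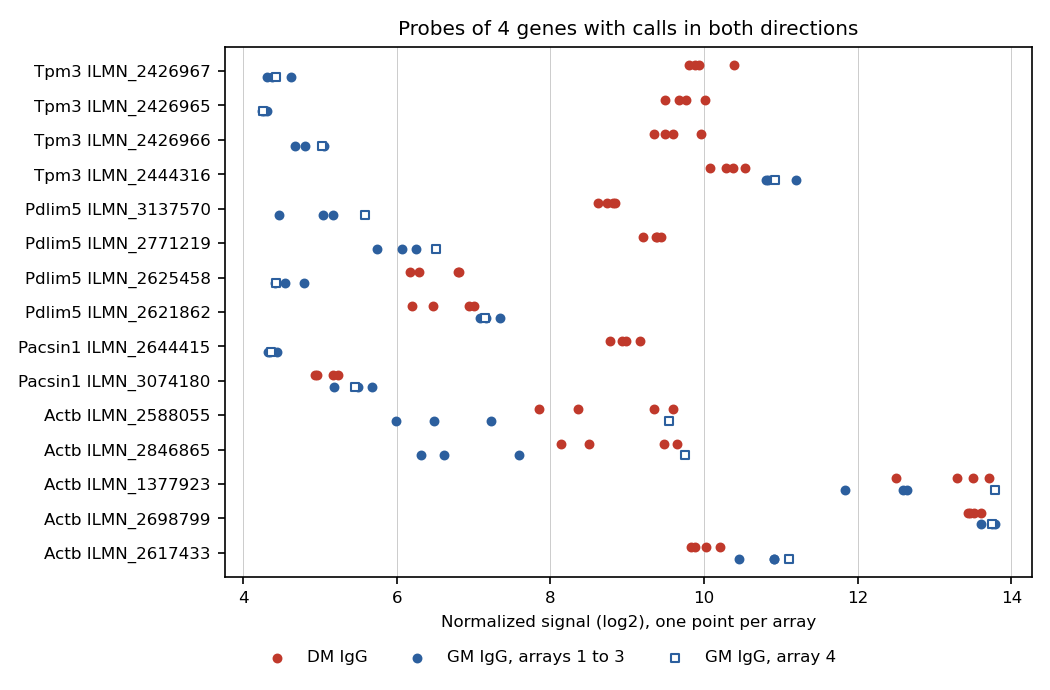
Normalized log2 signal (horizontal) of each tested probe of Tpm3, Pdlim5, Pacsin1 and Actb on the IgG arrays, with DM red, GM arrays 1 to 3 blue and GM array 4 an open square. For Tpm3, 3 probes are near background with GM and near 10 with DM, while the fourth is high in both. For the 3 Actb probes with the widest spread, GM array 4 lies at the level of the highest DM arrays.

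The same change between media was then measured in the MYF5 precipitates, which share no arrays with the IgG precipitates. There 62.6% of the 12965 probes were called, and of the genes 2648 were higher (29.7%) and 2974 lower (33.4%). Of the 8398 probes called with IgG, 79.1% were called in the same direction with anti-MYF5, and of the 8121 called with anti-MYF5, 81.8% were called in the same direction with IgG. Only 37 probes were called in opposite directions. Across probes the 2 sets of log2 fold changes correlated at r of 0.949, a description over probes that are not independent. Myog changed by 5.98 with anti-MYF5 and 5.99 with IgG, Ccnd1 by -3.04 and -2.99, and Birc5 by -3.96 and -3.92.

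The difference between the changes was tested directly. It was called for 745 probes, 5.75% of those tested, with 312 of them more positive (2.41%) and 433 more negative (3.34%) with anti-MYF5. In genes it was called for 530, or 5.95%, with 229 more positive (2.57%) and 301 more negative (3.38%). Among the lists, oxidative phosphorylation and ribosomal protein genes held the most differences above 0. Of 71 oxidative phosphorylation genes, 10 differences were above 0 and 3 below. With anti-MYF5, 24 of the 71 were higher and 11 lower, with a median of 0.11 against -0.14 with IgG. Of 53 ribosomal protein genes, 9 differences were above 0 and 0 below. With anti-MYF5, 3 of the 53 were higher and 23 lower. Named genes were chosen for large changes with IgG, so a smaller change with anti-MYF5 follows in part from that choice. Myh4 changed by 6.55 with anti-MYF5 and 8.10 with IgG, a difference of -1.55. Actn2 changed by 5.63 and 7.11, a difference of -1.48. Both differences were called, but neither Myh4 nor Actn2 was detected on any GM IgG array. The sizes of their IgG changes and differences are therefore uncertain, and no p-value is given for them. Over probes detected on all 8 IgG arrays, the difference was called for 408. Acta1 went the other way, at 8.72 and 7.58, a difference of 1.14 (adjusted p = 0.025). Blm changed by -2.67 with anti-MYF5 and -4.42 with IgG, a difference of 1.75 (adjusted p = 2.8e-05). The count of called differences was 1307 without GM IgG array 4, while the count of probes called between media with IgG was 8398 with that array and 8605 without it.

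**Figure D5:**
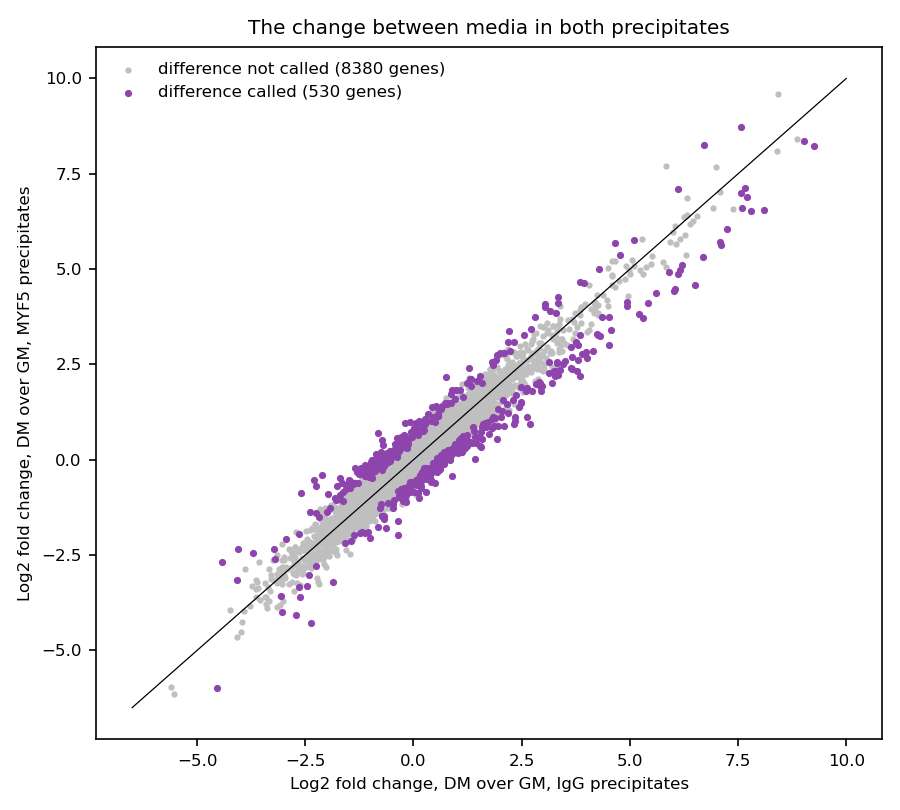
Log2 fold change of DM over GM in the MYF5 precipitates (vertical) against that in the IgG precipitates (horizontal) for 8910 genes, with the line of equal change. Purple points mark 530 genes whose difference between precipitates was called, and points lie along the line over the whole range.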

How the data were processed

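Signals came from 16 Illumina mouse bead arrays. The deposited table holds a signal intensity, not normalized between arrays, and a detection p-value per probe, per the file headers. GenomeStudio 2011.1 was used, per the submitters' processing notes. The deposited series values are a score, checked here to be each array's log10 signals standardized to z-scores. Groups came from the sample titles, and 0 sample columns were left unmapped.

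All 16 arrays were background-corrected by normexp from the detection p-values (offset 16), quantile-normalized, log2-transformed and fitted together in limma 3.58.1 (R 4.3.3), with 1 mean per group and an intensity trend (12 residual degrees of freedom). Probes detected on at least 4 of the 8 IgG arrays were tested. Probes were named through the platform annotation, updated by Entrez identifier for 23962 probes and by accession for 9, while 7 kept their symbol and 1719 had none. The fit was tested on simulated data. Background correction, offset, scaling, filter, moderation, array weights, replicate block, the Actb gap and single arrays were varied.

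Named genes are the 15 with the largest called log2 fold changes in each direction with groups that do not overlap and detection on all 4 arrays of a group, the top 3 of each list in each direction, and a fixed set of muscle and cell cycle genes. Members of lists given beyond these were chosen after their values were seen. The comparison and all lists were chosen with earlier results of these data known.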

Additional observations from a re-analysis of the deposited data

Results flagged for a closer look

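On some arrays 1 sample of a group of 4 lay apart from the others, judged by its gap to the nearest sample over the group's range, against Dixon's critical value for 4 samples. This happened for 29 of 354 groups, and chance gives about 1 in 20. Of these, 17 were on GM array 4. Levels in brackets are the log2 level of the sample that lay apart. Those of Myh8, Asb2, Itgb1bp2, Col1a1, Tnni1 and Fst were below the lowest detected signal of their array. These flags therefore lie at background. DM array 1 was the highest of its group for Inhbb (10.38) and Dtnb (5.83). DM array 4 was the highest of its group for Xbp1 (12.61) and Sgo1 (6.14). DM array 4 was the lowest of its group for Lrp4 (9.91), Zfp36l1 (12.80) and Smurf1 (5.26). GM array 1 was the highest of its group for Myh8 (4.90) and Asb2 (4.80). GM array 2 was the highest of its group for Itgb1bp2 (4.40). GM array 3 was the highest of its group for Col1a1 (4.63). GM array 3 was the lowest of its group for Trim54 (6.62). GM array 4 was the highest of its group for Mylpf (8.05), Tnni1 (4.75), Tnni2 (7.47), Cdkn1a (11.57), Des (12.59), Acadvl (9.27), Igfbp5 (12.87), Myod1 (9.07), Cd9 (12.03) and Hba-a1 (10.06). GM array 4 was the lowest of its group for Fst (4.62), Tgfbr1 (9.74), Exosc2 (8.70), Rbl1 (6.80), Igsf11 (9.02), Slco4a1 (8.24) and Prl2c4 (11.84).

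The change between media differed between the precipitates, by limma's test of the difference with adjustment over 12965 probes, for 33 of 177 named genes. Brackets give the log2 fold change with anti-MYF5 minus that with IgG. Where a gene was detected on no IgG array of a medium, as for genes given above as bounds, the size of its difference is uncertain. It was below 0 for 25 genes, of which 23 were higher with DM in the IgG precipitates. Named genes were chosen for large changes with IgG, so differences that point back towards 0 follow in part from that choice, and over all genes 301 differences were below 0 and 229 above. The muscle, matrix and other genes with a difference below 0 were Actn4 (-1.75), Itgb1bp2 (-1.59), Cox8b (-1.58), Myh4 (-1.55), Hspb3 (-1.50), Actn2 (-1.48), Slco4a1 (-1.43), Cox6a2 (-1.38), Pgam2 (-1.37), Tnnt3 (-1.28), Myh10 (-1.19), Csrp3 (-1.18), Ckm (-1.17), Myh8 (-1.02), Cav3 (-1.0), Tnni1 (-0.99), Unc45b (-0.97), Col1a1 (-0.93), Mymk (-0.91), Mb (-0.82), Asb2 (-0.80), Myh1 (-0.66), Myoz2 (-0.58), Fxyd6 (-0.55) and Actb (-0.53). It was above 0 for 8 genes, of which 6 were lower with DM in the IgG precipitates. They were Rpl30 (0.69), H2ac11 (0.91), Mfap5 (0.98), Ndufa4 (1.06), Acta1 (1.14), H2ac21 (1.26), Hba-a1 (1.71) and Blm (1.75). Causes of these differences were not tested.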

How the results depend on the processing

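Probes called between media in the IgG precipitates numbered 8398, and 6779 to 9518 over the settings run, or 7960 to 8605 when single arrays were left out. The lower count of 4562 was 2785 after median scaling and 2073 with no scaling, and the median of all genes moved with it. The difference between precipitates, 745 probes, moved more. It was 1151 with no scaling, 1398 on z-scores, 408 over probes detected on all 8 IgG arrays, 2269 with array weights and 1247 with the Actb probe gap as a covariate. Left-out arrays gave 409 to 1307. It moved by over 1.5 times without DM IgG array 1 (432), DM IgG array 3 (437), DM MYF5 array 2 (409), DM MYF5 array 3 (446), GM IgG array 2 (459), GM IgG array 4 (1307) or GM MYF5 array 1 (466). With the replicate number as a block, 8696 probes (3968 higher, 4728 lower) were called between media and 1126 for the difference. Same-numbered DM and GM IgG arrays correlated at 0.26, -0.05, 0.13 and -0.14 after removal of group means. Pairs with different numbers ranged from -0.28 to 0.29. These values cannot show whether same-numbered samples share a culture or a batch, and the labels do not say. The pairing of IgG with anti-MYF5 arrays was not tested.

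Of 174 called named genes, 160 kept their call and sign in every setting in which their probe was fitted. Genes not detected on all 8 IgG arrays were not fitted under the filter that requires it. Runs that left out a single MYF5 array were not counted here. Signs turned for Gapdh (-0.19 on z-scores), Cdkn1c (-0.0732) and Myod1 (-0.0165), both with the Actb gap as a covariate. List medians turned for repressors (-0.0126) and Notch (-0.10) with that covariate, for fusion (-0.35), Notch (-0.33), the dystrophin complex (-0.22) and nonmuscle cytoskeleton (-0.0052) over genes detected on all 8 arrays, and for immediate early genes (0.0024) and cholesterol synthesis (0.0907) with no scaling. Medians near 0 also turned for the dystrophin complex with array weights (-0.12) and without DM array 1, DM array 4, GM array 3 or GM array 4 (-0.0733 to -0.0026), for nonmuscle cytoskeleton on z-scores (-0.06), and for heat shock genes after median scaling (0.10), with no scaling (0.20), after cyclic loess (0.0008), with the Actb gap (0.09) and without DM array 2 (0.02). Utrn was not called after median scaling (-0.14), with no scaling (-0.04), after cyclic loess (-0.23), on z-scores (-0.06) or with array weights (-0.25). The causes were not tested. Signals near background limit the folds of genes undetected in one medium to bounds, and 4 arrays a group limit the precision.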

Other observations

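Replication-dependent histone genes, whose mRNAs in dividing cells lack a poly(A) tail, were looked at after their values were seen. Of 45 tested histone probes of 42 genes, 13 were higher, 29 lower and 3 not called, with a median log2 fold change of -1.47. Over all probes 29.6% were higher and 35.2% lower. H2ac11 and H2ac12 fell by 4.07 and 3.74, while H2ac18, H2bc4 and H1f2 rose by 3.33, 3.23 and 3.13. Directions differed by family. H2ac18 was the only H2ac probe called higher, most H2bc probes were called higher, and no H4c probe was. Most H3c probes were lower. H2ac18 was detected on 3 GM arrays, so the size of its change is uncertain, and the dimmer H2bc4 probe rose by 0.53. H2bc18 and H3c14 had probes called in opposite directions. These genes are close copies, and cross-hybridisation of their probes was not tested.

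Some further genes were chosen after their values were seen. The glutathione transferase genes Gsta2, Gsta1 and Gsta4 fell by 3.90, 3.63 and 2.01, and the quinone reductase gene Nqo1 fell by 2.82. The inflammatory caspase genes Casp1 and Casp4 rose by 4.17 and 3.87, with Casp4 detected on 3 GM arrays. Srpk3, a muscle splicing kinase, was at least 51.4-fold higher, and the splicing factor gene Rbfox1 at least 27.5-fold higher. Hsd11b1, which regenerates active glucocorticoid, was at least 97.8-fold higher.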
